A study of Homo sapiens with 8 samples.

Results

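The BCL2 family decides whether mitochondria release the factors that start apoptosis, and 10 of its genes were followed here in HSC-5, an established human line from a squamous cell carcinoma of the skin. They were taken from the count table by symbol, 10 of 20294 genes: the BH3-only genes BMF, HRK, BCL2L11 (BIM), BBC3 (PUMA) and PMAIP1 (NOXA), the guardians BCL2, BCL2L1 (BCL-xL) and MCL1, and the effectors BAX and BAK1. All 10 were found, and all 10 passed the filter on low counts. Libraries came from cells that received the guide RNA sgEZH2-1 (3 libraries), the guide RNA sgEZH2-2 (3 libraries) or the empty vector (control, 2 libraries). The parent cells of all groups had been given Cas9 by lentivirus, and guide-bearing cells were selected with G418, per the design text. Each group is a selected population of 1 cell line grown in DMEM with serum, and RNA was taken directly after selection.

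Effectors form pores in the outer mitochondrial membrane, guardians bind and hold effectors and BH3-only proteins, and BH3-only proteins relay stress signals by occupying the guardians or by engaging the effectors directly. In keratinocytes, as in other epithelial cells, loss of attachment is a classical trigger, and BMF and BIM are the BH3-only proteins best known for responding to it. EZH2, the methyltransferase of a Polycomb complex, methylates histone H3 and keeps target genes silent, many of them with promoters rich in CpG dinucleotides.

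BMF and HRK were the members called higher with each guide, so the sequences just before their annotated starts are shown, with CpG dinucleotides in capitals. The sequences are from RefSeq (GRCh38.p14), where 9 of the 10 genes matched by symbol. Each window holds the 250 bases before a start, read 5′ to 3′ on the minus strand. They are HRK at chr12:116881442-116881691, the distal BMF start at chr15:40108880-40109129 and the proximal BMF start at chr15:40106967-40107216.
HRK: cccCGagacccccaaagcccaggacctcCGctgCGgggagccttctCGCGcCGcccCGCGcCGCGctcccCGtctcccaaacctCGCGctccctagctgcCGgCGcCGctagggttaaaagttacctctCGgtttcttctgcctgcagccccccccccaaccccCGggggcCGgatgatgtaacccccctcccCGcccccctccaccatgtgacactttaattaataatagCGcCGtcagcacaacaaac
BMF distal: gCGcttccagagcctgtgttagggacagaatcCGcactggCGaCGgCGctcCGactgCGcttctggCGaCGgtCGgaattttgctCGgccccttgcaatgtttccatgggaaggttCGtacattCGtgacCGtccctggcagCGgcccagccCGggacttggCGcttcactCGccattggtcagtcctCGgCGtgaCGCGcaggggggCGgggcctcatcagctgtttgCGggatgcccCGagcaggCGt
BMF proximal: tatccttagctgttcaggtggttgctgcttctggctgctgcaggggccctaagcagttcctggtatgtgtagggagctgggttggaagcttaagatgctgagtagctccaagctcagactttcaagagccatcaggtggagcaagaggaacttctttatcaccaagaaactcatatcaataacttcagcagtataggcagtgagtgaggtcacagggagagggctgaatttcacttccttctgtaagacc

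The HRK window held 22 CpG and the distal BMF window 26, against a median of 11 over all 35116 RefSeq promoter windows. The proximal BMF window held 0 CpG, and gene counts do not tell which start was used. Fewer CpG than in the HRK window were found in 72.0% of all windows, and fewer than in the distal BMF window in 80.4%. Among members not called in any comparison, the window of BCL2L11 held 34 CpG, of BAX 25, of BCL2 24, of BAK1 5 and of BBC3 4. Of the members called with sgEZH2-1 alone, PMAIP1 held 36 and the 2 windows of BCL2L1 held 17 and 12. The GC box GGGCGG, searched on both strands and overlapping some of the counted CpG, was found at 2 places in the HRK window and 1 in the distal BMF window. It was also found at 4 places in the PMAIP1 window, 3 in that of BCL2L11, 2 in that of BAK1 and 1 in that of BAX. The windows of BCL2, BBC3 and BCL2L1 and the proximal BMF window held 0. The GC box occurs in 42.6% of all windows. These are descriptions of sequence, since no chromatin mark was measured.

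Library totals were 12.9 M to 14.7 M counts with sgEZH2-1, 12.6 M to 14.3 M with sgEZH2-2 and 14.3 M and 15.5 M in control. EZH2 itself was at 56.4, 56.3 and 48.0 CPM (counts scaled to the library total) with sgEZH2-1, 73.8, 67.5 and 65.1 CPM with sgEZH2-2, and 82.7 and 84.1 CPM in control. The groups did not overlap, though an EZH2 count also includes transcripts with small insertions or deletions. The EZH2 transcript stood at 64.2% of the control mean with sgEZH2-1 and 82.5% with sgEZH2-2. The log2 fold changes of EZH2 were -0.64 (adjusted p = 0.000529, edgeR quasi-likelihood test) and -0.28 (adjusted p = 0.0699). The sgEZH2-2 value passed in 1 of 8 fits that each left out 1 library. Its adjusted p was 0.0473 without the third sgEZH2-1 library and 0.214 without the third sgEZH2-2 library. With the guides pooled, where a difference between guides counts as spread, the log2 fold change of EZH2 was -0.45 (adjusted p = 0.113 in edgeR). For the mean of both guides in a joint fit of 3 groups, the EZH2 value was -0.46 (adjusted p = 0.00253 in edgeR). EZH2 was lower with sgEZH2-1 than with sgEZH2-2 (-0.36, adjusted p = 0.00844). All 10 keratinocyte markers were detected, with a summed level of 3354 to 3958 CPM with sgEZH2-1, 3363 to 3439 with sgEZH2-2, and 3839 and 3898 in control. The sum hides changes of single markers. Of the 10, 3 rose and 1 fell with sgEZH2-1 in edgeR, where 20.8% of all genes were called. With sgEZH2-2, 0 rose and 3 fell, where 8.68% of all genes were called. Among other cell types, CD3E and SPI1 of 8 leukocyte markers, COL1A2 of 8 fibroblast markers, KDR of 5 endothelial markers, and TYR, DCT and SOX10 of 6 melanocyte markers had 0 counts in every library. The fibroblast markers summed to 4.55 to 8.82 CPM with sgEZH2-1, 11.04 to 13.9 with sgEZH2-2, and 5.93 and 7.24 in control. The 5 endothelial markers, led by CDH5, summed to 76.4 to 81.7 CPM with sgEZH2-1, 143 to 160 with sgEZH2-2, and 177 and 183 in control, and their part in the results was not tested. Whether replicate libraries stem from separate cultures is not stated, so each p-value reflects the spread between libraries, which may be technical. A further control was left out by the authors because it clustered apart, so the spread among controls covers the retained 2 alone. In bulk RNA, fewer cells with a transcript and less of it per cell cannot be told apart.

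With sgEZH2-1, 4 of the 10 members rose and 0 fell in edgeR and in DESeq2, where 11.3% of the 13124 genes tested rose and 9.51% fell (20.8% in either direction). With sgEZH2-2, 2 rose and 0 fell, where 6.18% rose and 2.5% fell (8.68% in either direction). With the guides pooled, 2 rose and 0 fell, where 3.76% rose and 0.594% fell (4.36% in either direction). BMF and HRK were called in each of these comparisons, while PMAIP1 and BCL2L1 were called with sgEZH2-1. At an unadjusted p under 0.05 there were 4 members with sgEZH2-1, 3 with sgEZH2-2 and 4 pooled, where 34.4%, 22.6% and 15.9% of all genes were under it, so for the single guides these counts lie near the background. The median log2 fold change of the 10 was 0.17 with sgEZH2-1, 0.15 with sgEZH2-2 and 0.15 pooled, beside medians over all genes of -0.0094, 0.00091 and -0.0043. All comparisons with control share the same 2 control libraries.

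**Figure D1:**
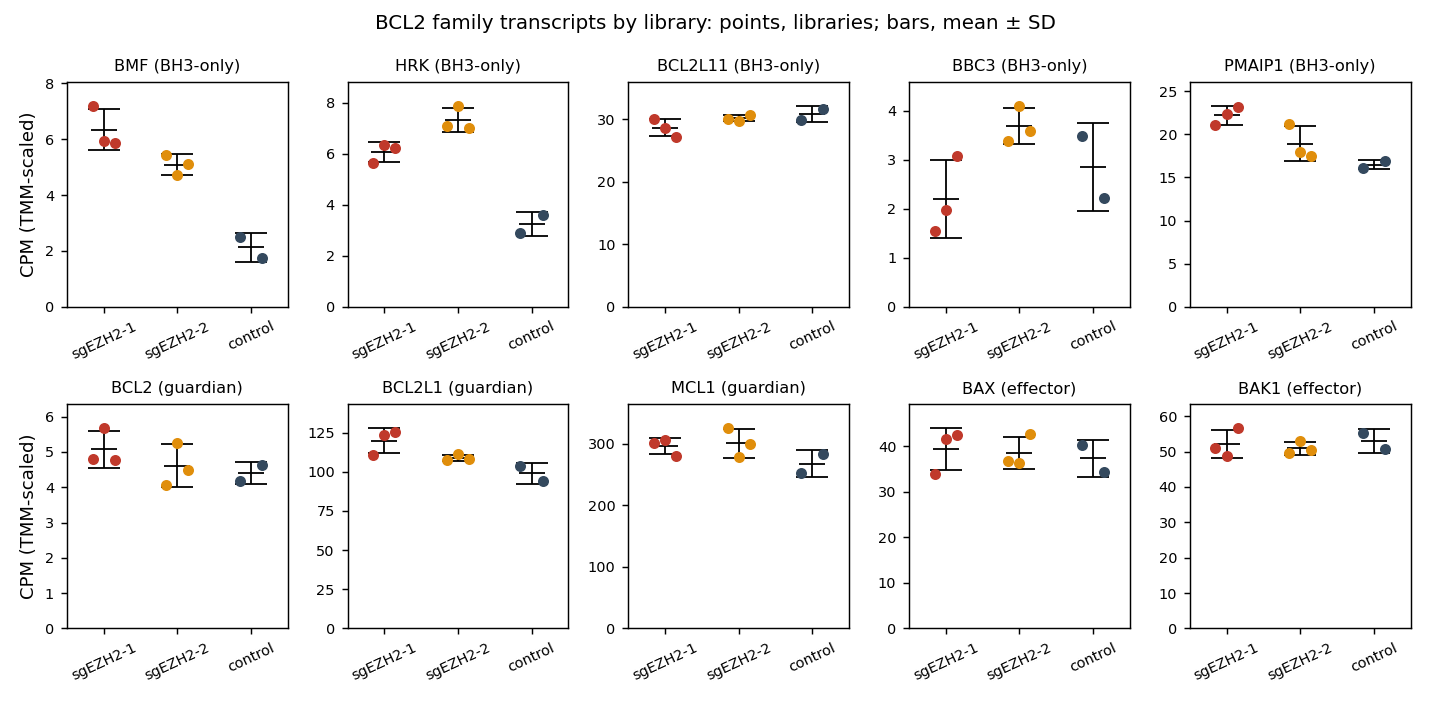
CPM of each of the 10 BCL2 family genes in every library, with sgEZH2-1, sgEZH2-2 and control from left to right. Points are libraries and bars the mean ± SD (n = 3, 3 and 2). BMF and HRK lie above both controls in all 6 guide libraries, while BAX, BAK1 and BCL2L11 overlap between groups.

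BMF encodes a BH3-only protein that is held on myosin V motors in healthy cells and freed by detachment. The gene lies at chr15:40087890-40108892 on the minus strand (GRCh38, GENCODE). BMF counts were 93, 87 and 84 with sgEZH2-1, 79, 60 and 67 with sgEZH2-2, and 35 and 27 in control. On scaled totals BMF was at 7.18, 5.95 and 5.88 CPM with sgEZH2-1, 5.45, 4.72 and 5.11 CPM with sgEZH2-2, and 2.48 and 1.76 CPM in control. Every guide library was above both controls, and every sgEZH2-1 library was above every sgEZH2-2 library. BMF averaged 6.34 ± 0.732 CPM (SD, n = 3) in sgEZH2-1 cells and 5.09 ± 0.367 CPM (SD, n = 3) in sgEZH2-2 cells, against 2.12 ± 0.512 in control (SD, n = 2). BMF rose 2.99-fold with sgEZH2-1 (log2 fold change 1.58, SE 0.20, adjusted p = 0.000462 in edgeR) and 2.41-fold with sgEZH2-2 (1.27, SE 0.21, adjusted p = 0.00376). Pooled, the log2 fold change of BMF was 1.43 (adjusted p = 0.00549), and without the second control it was 1.20 (adjusted p = 0.101). The control mean rests on 62 counts in all, with an exact Poisson interval of 47.5 to 79.5 counts that covers counting error only. BMF-AS1, on the opposite strand, overlaps 8.46% of the BMF exon length, and since the strand setting of the counting is not given, reads of the 2 genes may be mixed.

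HRK (harakiri) encodes a small BH3-only protein best known from neurons deprived of growth factors. It lies at chr12:116856144-116881441 on the minus strand. HRK counts were 73, 93 and 89 with sgEZH2-1, 103, 100 and 92 with sgEZH2-2, and 41 and 55 in control. In CPM, HRK was at 5.64, 6.36 and 6.23 with sgEZH2-1, 7.11, 7.86 and 7.01 with sgEZH2-2, and 2.91 and 3.59 in control. The groups did not overlap, and here the sgEZH2-2 libraries were the highest, the opposite of the order seen for BMF. HRK rose 1.87-fold with sgEZH2-1 (log2 fold change 0.90, SE 0.16, adjusted p = 0.00317 in edgeR) and 2.25-fold with sgEZH2-2 (1.17, SE 0.16, adjusted p = 0.0013). Pooled, the log2 fold change of HRK was 1.04 (adjusted p = 0.00933). The pooled HRK call was lost without the first control (0.91, adjusted p = 0.149) and without the second (1.20, adjusted p = 0.0642), while the calls of BMF and HRK with each single guide held without any single library.

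PMAIP1 encodes NOXA, a BH3-only protein that binds MCL1. In CPM, PMAIP1 was at 21.1, 22.4 and 23.2 with sgEZH2-1, 21.3, 17.9 and 17.5 with sgEZH2-2, and 16.1 and 16.9 in control. All 6 guide libraries were above both controls, and the first sgEZH2-2 library lay within the sgEZH2-1 range, apart from the other sgEZH2-2 libraries. PMAIP1 rose 1.35-fold with sgEZH2-1 (log2 fold change 0.43, SE 0.10, adjusted p = 0.0152 in edgeR), a call that was lost without the first control (0.40, adjusted p = 0.0953). With sgEZH2-2 the log2 fold change of PMAIP1 was 0.20, with a 95% interval from -0.033 to 0.43 (adjusted p = 0.298).

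BCL2L11 encodes BIM, which binds every guardian and activates BAX and BAK. In CPM, BCL2L11 was at 30.03, 28.6 and 27.2 with sgEZH2-1, 30.01, 29.7 and 30.6 with sgEZH2-2, and 29.9 and 31.7 in control. The groups overlapped. Its 95% interval for the log2 fold change ran from -0.27 to 0.060 with sgEZH2-1 and from -0.20 to 0.13 with sgEZH2-2, and neither interval reaches the log2 fold changes of BMF and HRK. MIR4435-2HG, on the opposite strand, overlaps 10.9% of the BCL2L11 exon length.

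BBC3 encodes PUMA, a BH3-only protein that binds every guardian. In CPM, BBC3 was at 1.54, 1.98 and 3.08 with sgEZH2-1, 3.38, 4.09 and 3.58 with sgEZH2-2, and 3.48 and 2.22 in control. The controls spanned values of both guide groups. BBC3 had log2 fold changes of -0.35 with sgEZH2-1 (95% interval -1.03 to 0.32) and 0.38 with sgEZH2-2 (-0.27 to 1.02), with adjusted p of 0.447 and 0.498 in edgeR. BBC3 rests on 20 to 52 counts per library, and its intervals were the widest among the 10 members.

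**Figure D2:**
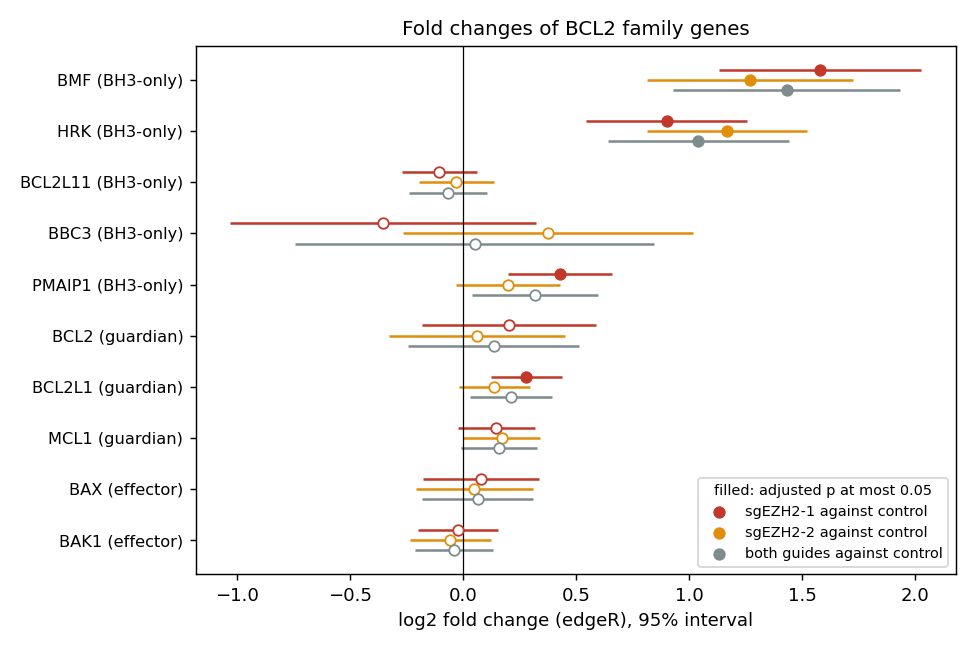
Log2 fold changes against control from edgeR, with 95% intervals, for sgEZH2-1, sgEZH2-2 and both guides pooled, a row per gene. Filled points have an adjusted p of at most 0.05. The intervals of BMF and HRK lie wholly above 0 in each comparison, and those of BAX and BAK1 span 0.

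Among the guardians, which restrain the effectors, BCL2L1 passed the test with sgEZH2-1, and BCL2 and MCL1 did not pass with either guide. In CPM, BCL2L1 was at 110.9, 123 and 126 with sgEZH2-1, 107, 111 and 108 with sgEZH2-2, and 104 and 94.1 in control. Its guide libraries were all above both controls, with the lowest of them close to the higher control. BCL2L1 rose 1.21-fold with sgEZH2-1 (log2 fold change 0.28, SE 0.070, adjusted p = 0.0187 in edgeR), and the value was 0.14 with sgEZH2-2 (adjusted p = 0.281). The sgEZH2-1 call of BCL2L1 was lost without the second control (0.21, adjusted p = 0.115) and without the second sgEZH2-1 library (0.27, adjusted p = 0.0538). ABALON, an antisense transcript, overlaps 43.0% of the annotated BCL2L1 exon length, so the BCL2L1 count is uncertain. Gene counts also do not separate the anti-apoptotic and pro-apoptotic splice forms of BCL2L1 and MCL1.

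MCL1 encodes a short-lived guardian. In CPM, MCL1 was at 301, 306 and 281 with sgEZH2-1, 325, 278 and 299 with sgEZH2-2, and 251 and 283 in control. The groups overlapped through the second control, and the log2 fold changes of MCL1 were 0.15 (adjusted p = 0.204) and 0.17 (adjusted p = 0.220) with sgEZH2-1 and sgEZH2-2. BCL2, the founding member, was at 4.76 to 5.68 CPM with sgEZH2-1, 4.07 to 5.27 with sgEZH2-2, and 4.19 and 4.63 in control. The sgEZH2-1 libraries were above both controls for BCL2, but the log2 fold change of 0.20 had a 95% interval from -0.18 to 0.59 (adjusted p = 0.446).

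Neither effector, the proteins that form the pore, was called in any comparison. BAX was at 34.04, 41.6 and 42.5 CPM with sgEZH2-1, 36.9, 36.3 and 42.7 with sgEZH2-2, and 40.3 and 34.5 in control. BAK1 was at 51.0, 48.8 and 56.6 CPM with sgEZH2-1, 49.5, 52.9 and 50.3 with sgEZH2-2, and 55.3 and 50.6 in control. Both overlapped between all groups. The 95% intervals ran from -0.18 to 0.34 for BAX and from -0.20 to 0.16 for BAK1 with sgEZH2-1, and from -0.21 to 0.31 and from -0.23 to 0.12 with sgEZH2-2. Changes within these bounds remained compatible with these libraries.

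Set against each other, the guides gave 0 called members of 10 with edgeR, and 0 with DESeq2, where edgeR called 10.4% of all genes higher and 11.5% lower (21.9% in either direction). At an unadjusted p under 0.05 there were 3 of 10, where 36.7% of all genes were under it. BBC3 had a log2 fold change of -0.73 for sgEZH2-1 over sgEZH2-2 (95% interval -1.33 to -0.13, adjusted p = 0.0762), and all sgEZH2-1 libraries were below all sgEZH2-2 libraries. Without the third sgEZH2-1 library the value for BBC3 was -1.05 (adjusted p = 0.0246). PMAIP1 was at 0.23 (adjusted p = 0.0956), or 0.32 without the first sgEZH2-2 library (adjusted p = 0.0319). BCL2L1 was at 0.14 (adjusted p = 0.130), or 0.19 without the first sgEZH2-1 library (adjusted p = 0.0453). Each of these 3 genes passed in only 1 of the 8 fits that left out 1 library. Elsewhere the adjusted p reached 0.207 for BBC3, 0.284 for PMAIP1 and 0.300 for BCL2L1. BMF was at 0.31 (95% interval -0.041 to 0.66, adjusted p = 0.183) and HRK at -0.27 (-0.56 to 0.021, adjusted p = 0.164). The libraries of the guides did not overlap for 3 of 10 members, where 42.2% of all genes had no overlap: BMF was higher, as were 21% of genes, and HRK and BBC3 were lower, as were 21.2%.

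Counting libraries alone, 4 of the 10 members (BMF, HRK, PMAIP1 and BCL2L1) had all 6 guide libraries above both controls and 0 had all below, where 10.2% and 9.78% of all genes did (19.9% in either direction). For sgEZH2-1 alone 5 of 10 were above, with BCL2 added, and 0 below, where 23.7% and 24.3% of genes were (48% in either direction). For sgEZH2-2 alone 4 of 10 were above, and 0 below, where 19.3% and 20.5% of genes were (39.7% in either direction).

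To compare the genes with each other, levels were divided by exon length. MCL1 was highest in all groups, at 67.7 ± 3.10 CPM per kb (SD, n = 3) in sgEZH2-1 cells and 68.8 ± 5.43 (SD, n = 3) in sgEZH2-2 cells, against 61.1 ± 5.10 in control (SD, n = 2). The order then ran through BCL2L1, BAK1, BAX, PMAIP1 and BCL2L11 in each of the 3 groups, and the library ranges of these neighbours did not overlap in any group. The remaining 4 genes, BBC3, HRK, BMF and BCL2, lay between 0.375 and 1.16 CPM per kb in their group means, and their order differed between groups. In control, BBC3 was at 0.895, HRK at 0.474, BMF at 0.390 and BCL2 at 0.375, and the ranges of BMF overlapped those of HRK and BCL2. With sgEZH2-1, BMF was first of the 4 at 1.16, and its range lay above that of HRK at 0.886, while HRK and BBC3 overlapped. With sgEZH2-2, BBC3 at 1.16 and HRK at 1.07 overlapped, and BMF at 0.935 lay just below them.

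**Figure D3:**
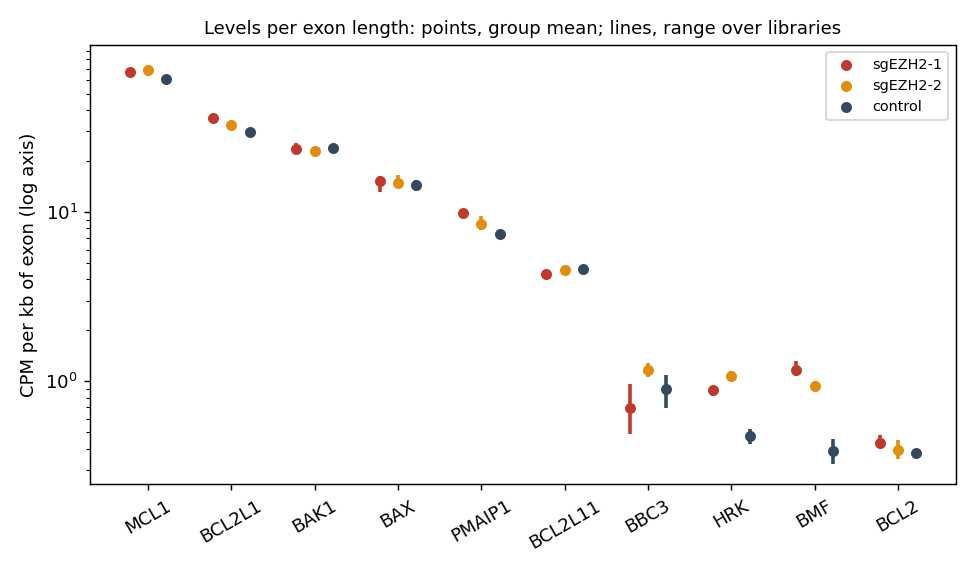
CPM per kb of exon on a log axis for the 10 genes, ordered by the control mean, with sgEZH2-1, sgEZH2-2 and control from left to right. Points are group means and lines the range over libraries. HRK and BMF stand clear of control in both guide groups but remain far below MCL1 and BCL2L1.

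BMF and HRK together made up 11.4% to 12.9% of the summed per-kb level of the 5 BH3-only genes with sgEZH2-1 and 11.9% to 12.8% with sgEZH2-2, against 6.11% and 6.44% in control. The rest came mostly from PMAIP1 and BCL2L11. The summed BH3-only level was 15.7% to 17.0% of the summed guardian level with sgEZH2-1 and 15.3% to 16.2% with sgEZH2-2, against 14.8% and 15.3% in control. That ratio of transcripts was above both controls in every sgEZH2-1 library. With sgEZH2-2 the ratio overlapped control narrowly, at 15.324% in the third library against 15.326% in the first control. The ratio says nothing about protein amounts.

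BMF was the only member called with both guides at a log2 fold change of at least 1, and CCDC69 and MFAP3L were the tested genes whose profiles over the 8 libraries lay closest to it. Their root mean square differences from BMF, in log2 CPM centred on the control mean, were 0.11 and 0.14. CCDC69 was at 3.66 CPM with sgEZH2-1 and 3.21 with sgEZH2-2, against 1.30 in control, and MFAP3L at 2.51 and 1.80, against 0.787. With sgEZH2-2, the call of CCDC69 was lost without the second control (adjusted p = 0.108) and that of MFAP3L in 6 of 8 fits that each left out 1 library (adjusted p up to 0.196).

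Of the other BCL2 relatives, 13 of 15 were tested, and with sgEZH2-1 0 rose and 3 fell in edgeR, where 11.3% of all genes rose and 9.51% fell. BNIP3, a mitochondrial receptor for mitophagy that responds to hypoxia, was at a mean of 41.3 CPM with sgEZH2-1, 77.8 with sgEZH2-2 and 71.1 in control. It fell with sgEZH2-1 (log2 fold change -0.78, adjusted p = 2.41e-05 in edgeR), and it was lower than with sgEZH2-2 (-0.91, adjusted p = 9.33e-06). BNIP3L, its paralog, was at -0.48 between the guides (adjusted p = 0.00947). MOAP1, a BAX-binding adaptor, had -0.46 with sgEZH2-1 (adjusted p = 0.0258) and lost the call in 4 of the 8 fits that each left out 1 library, with adjusted p up to 0.128. BCL2L13, another mitophagy receptor, fell by 0.19 on the log2 scale with sgEZH2-1 and by 0.26 with sgEZH2-2, and lost these calls in 6 and 5 of the 8 fits. BIK, a BH3-only gene of the endoplasmic reticulum, had 0.50 with sgEZH2-1 (adjusted p = 0.124) and 0.74 with sgEZH2-2 (adjusted p = 0.0563), as a gene chosen after its values were seen. BCL2A1 and BCL2L10 were not tested, with a mean of at most 0.074 CPM in any group.

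Downstream of the mitochondria, the 11 apoptosome and caspase genes gave 2 rises and 1 fall with sgEZH2-1, and 0 calls with sgEZH2-2 in edgeR and in DESeq2 (1 at an unadjusted p under 0.05). Over all genes 20.8% were called with sgEZH2-1 and 8.68% with sgEZH2-2, so these counts lie near the background. CYCS, the cytochrome c gene, was at 569 CPM with sgEZH2-1 and 444 with sgEZH2-2, against 402 in control. It rose by 0.50 on the log2 scale with sgEZH2-1 (adjusted p = 0.0166), and without the first control it was at 0.32 (adjusted p = 0.144). CFLAR, an inhibitor of caspase activation at death receptors, fell with sgEZH2-1 (-0.25, adjusted p = 0.0218), and lost the call in 3 of the 8 fits without 1 library, with adjusted p up to 0.133. Among 9 tested IAP genes and antagonists, 1 was called with sgEZH2-1, where 20.8% of all genes were. It was BIRC5 (survivin), which rose (0.16, adjusted p = 0.0496), a call lost in 7 of the 8 fits. A list of 10 other genes for proteins acting at mitochondria gave 2 calls with sgEZH2-1, a share near the 20.8% of all genes. Both were falls: MFN2, a fusion GTPase gene, at -0.22 (adjusted p = 0.0132, or 0.117 without the first control) and AIFM1 at -0.23 (adjusted p = 0.0240, or up to 0.166 in the 3 of 8 fits that lost the call).

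DYNLL1 and DYNLL2 encode the dynein light chains that dock BIM and BMF to the cytoskeleton. DYNLL2, the partner of BMF, was at 207 CPM with sgEZH2-1 and 184 with sgEZH2-2, against 170 in control. DYNLL2 rose with sgEZH2-1 (0.29, adjusted p = 0.00427 in edgeR), and the call held without any single library. DYNLL1 fell by 0.21 on the log2 scale with sgEZH2-2 (adjusted p = 0.0161), a call lost in 5 of the 8 fits with adjusted p up to 0.109. Of 8 genes for the turnover of family proteins, 1 was called with sgEZH2-1, where 20.8% of all genes were. It was GSK3B, the kinase that marks MCL1 for degradation, at 0.19 (adjusted p = 0.0270), and that call was lost in 4 of the 8 fits.

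Of 11 transcription factors that can induce BH3-only genes, 0 rose and 5 fell with sgEZH2-1 in edgeR and in DESeq2, where 11.3% of all genes rose and 9.51% fell. Their median log2 fold change was -0.28, beside -0.0094 over all genes. MYC was at 105 CPM with sgEZH2-1, 186 with sgEZH2-2 and 169 in control (-0.68 with sgEZH2-1, adjusted p = 0.000748). TP63, a transcription factor of basal keratinocytes, had -1.01 with sgEZH2-1 (adjusted p = 1.27e-05). With sgEZH2-2, 2 of the 11 rose and 1 fell, where 6.18% of all genes rose and 2.5% fell, and JUN was at 0.59 (adjusted p = 0.00357). The calls of MYC and TP63 with sgEZH2-1 and of JUN with sgEZH2-2 held without any single library.

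**Figure D4:**
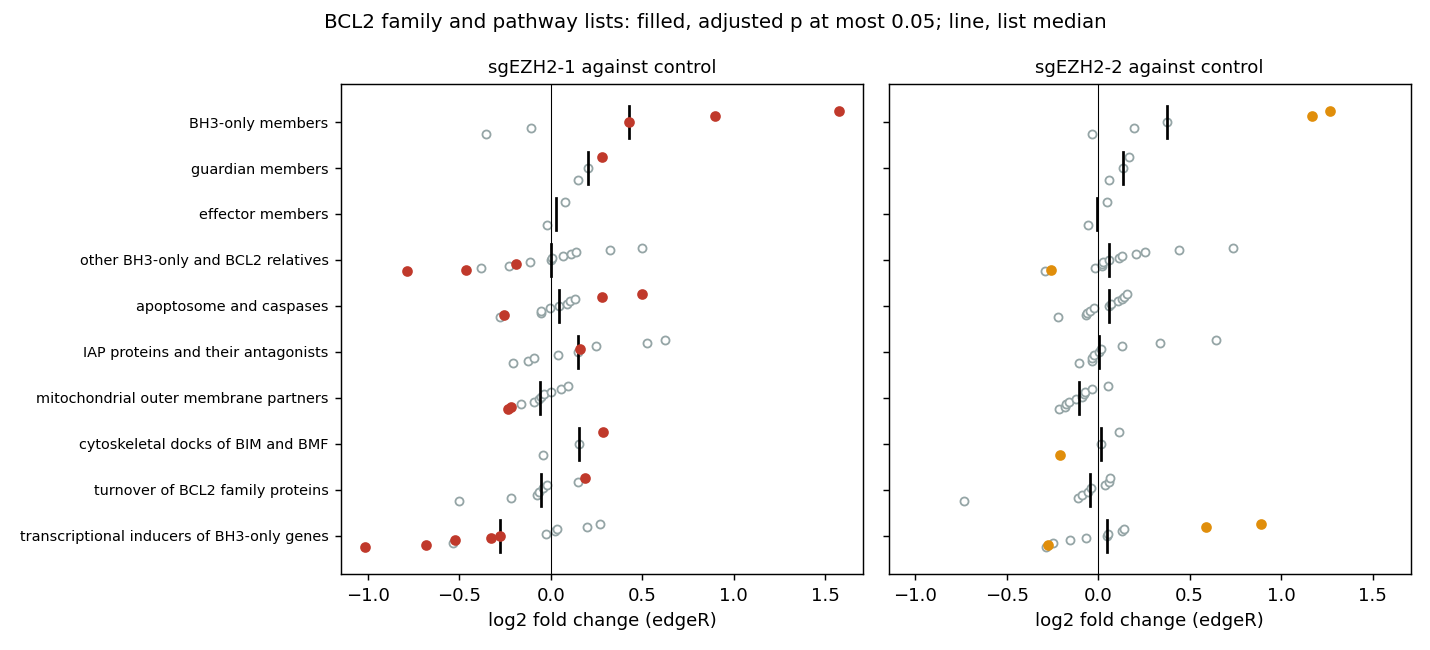
Log2 fold changes against control for the family and for the other pathway genes, by list, with sgEZH2-1 at left and sgEZH2-2 at right. Filled points have an adjusted p of at most 0.05 and black lines mark list medians. BMF and HRK lie to the right of every other gene plotted in both panels.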

How the data were processed

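Values are gene counts as deposited by the authors: unnormalized integers for 20294 genes, with 1 column per library. Per the submitters' processing notes, the tools were STAR, FastQC and DESeq and the build hg38; the sources used here give no versions, counting tool, annotation or strand setting, so reads of overlapping genes may be mixed. Libraries were prepared with a stranded mRNA kit, per the labels' protocols. Columns name the group but no replicate number, so libraries are numbered by column order within a group. No columns were left unused, and no row was unnamed.

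Genes were filtered with filterByExpr of edgeR 4.0.16 (minimum count 10) in R 4.3.3, which left 13124. Totals were scaled by TMM, and levels are CPM on those totals. Tests were two-sided quasi-likelihood F tests of edgeR, adjusted by Benjamini-Hochberg over all genes tested, with a threshold of 0.05. The single-guide comparisons and the comparison between guides came from a joint fit of 3 groups, and the pooled comparison was a fit of 2 levels. SE and 95% intervals were derived from the F statistic. The code was tested on simulated data. Exon lengths and overlaps are from GENCODE release 29 (GRCh38), as the length of all annotated exons merged. Alternatives were RLE scaling, DESeq2 1.42.0, other filters, other samples in the fit and leaving out each library.

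Some genes and 1 list are not reported here. The members and lists were chosen with earlier results of these data known. Named genes are the 10 members, EZH2, up to 4 called genes per list by smallest adjusted p, and the 3 genes closest to each member called with both guides at a log2 fold change of at least 1. Pairs of libraries within a group differed by 2.16 to 9.85 times the sampling variance, so none was counted as a repeat of another.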

Additional observations from a re-analysis of the deposited data

How the results depend on the processing

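BMF and HRK were called with each guide under every alternative run. With the guides pooled, 572 genes were called, 330 with at least 50 counts in every library of 1 group and 1612 for the mean of both guides in the fit of 3 groups. Leaving out 1 library gave 1373 to 2591 genes with sgEZH2-1 (2726 with all), 521 to 1365 with sgEZH2-2 (1139 with all), 145 to 509 pooled, and 1521 to 2995 between the guides (2874 with all). Libraries whose removal lowered a number by over 1.5 times were the first control (1373) and the second sgEZH2-1 library (1804) with sgEZH2-1, the first (521) and second control (579) and the second (660) and the third sgEZH2-2 library (688) with sgEZH2-2, the first (163) and second control (145) pooled, and the second sgEZH2-1 library (1691) and the second (1521) and the third sgEZH2-2 library (1572) between the guides. Members called ran from 0 to 2 pooled and from 0 to 1 between the guides.

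Some members that were not called changed sign when 1 library was left out. With sgEZH2-1 the log2 fold changes ran from -0.66 to 0.0024 for BBC3, -0.086 to 0.047 for BAK1 and -0.030 to 0.20 for BAX. With sgEZH2-2 they ran from -0.044 to 0.16 for BCL2, -0.12 to 0.014 for BAK1, -0.065 to 0.011 for BCL2L11 and -0.060 to 0.17 for BAX. Pooled they ran from -0.10 to 0.031 for BAK1, -0.24 to 0.41 for BBC3 and -0.045 to 0.18 for BAX, and between the guides from -0.028 to 0.12 for BAX, -0.077 to 0.034 for MCL1 and -0.029 to 0.081 for BAK1. The cause was not tested. Among the pathway genes called with sgEZH2-1, BCL2L13, MOAP1 and BIRC5 missed the threshold with DESeq2 (adjusted p 0.0594, 0.0512 and 0.0518), and these, CFLAR, AIFM1 and GSK3B missed it in a fit of sgEZH2-1 and control alone (adjusted p 0.0679 to 0.0974). No paired analysis was possible because the columns of the count table carry no replicate numbers. BMF, HRK and BBC3 had 20 to 103 counts per library, so depth limits their precision.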
